A study of Homo sapiens with 4 samples.

Results

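The comparison described here is the beta-catenin RNA immunoprecipitation (RIP) of CaCo-2 cells against the input of the same line. Its members are all transcripts of the CaCo-2 table, 11943 of the 21823 transcripts listed for the study's 2 lines, under 7452 gene names. CaCo-2 and HT-29 are established lines of human colon adenocarcinoma, both left untreated, and the study asked which long non-coding RNAs bind beta-catenin in them. Nuclei were isolated and lysed, a beta-catenin antibody and protein G magnetic beads collected the complexes, and the RNA went into TruSeq libraries. The CaCo-2 groups were therefore a beta-catenin RIP, with 1 library, and an input without antibody, with 1 library; a mock precipitation was not analysed here. With 1 library per side there was no replicate check, no test was made of any transcript, and every value below compares these libraries and not conditions in general.

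Beta-catenin is the co-activator of canonical Wnt signalling. A destruction complex built on APC and AXIN marks it for degradation, and once that step is blocked it enters the nucleus and joins TCF/LEF factors on target genes; at the membrane it also ties cadherins to actin. In most colon cancers the pathway is active without ligand, and several RNA-binding partners of the nuclear protein have been described. RIP reads out which RNAs come down with a protein, directly or through other proteins of the complex.

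The level of a transcript is given in FPKM, fragments scaled by transcript length and library size, and the comparison as a log2 ratio, RIP to input, after 1 FPKM was added to each. FPKM is a share of a library, so more of an RNA in the RIP and less of the other RNAs in it cannot be told apart. The table lists transcripts at least 1.5-fold above input, so each ratio is above 0 by construction, and transcripts at or below input were not analysed here. Input was listed at 0 for 3466 transcripts and lay between 0 and 1 FPKM for 5906. Most weight is given to the 2533 core transcripts (21.2%), which had at least 1 FPKM in both libraries and a genomic span of at least 200 bases. They carry 2147 gene names. EIF3M, at an input of 1.001 FPKM, was the member just inside the input limit, and ERO1L, at 0.9998 FPKM, the one just outside.

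Core transcripts were mostly low and modestly above input. Their median level was 1.59 FPKM in the input and 3.18 FPKM in the RIP. The quartiles of the plain fold were 1.63, 1.82 and 2.18, and the highest was 12.6. The log2 ratio had a median of 0.61, quartiles of 0.48 and 0.80, and a highest value of 3.29. A ratio of at least 1, which is 2-fold on the scale with the pseudocount, is called 2-fold from here on. It was met by 318 core transcripts, 12.6% (95% Wilson interval 11.3 to 13.9%; all intervals cover counting error over transcripts alone), under 304 gene names. Of all listed transcripts 4129 met it, 34.6%, most of them with an input under 1 FPKM. A ratio of 1.5 was reached by 50 core transcripts and a ratio of 2 by 5.

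**Figure D1:**
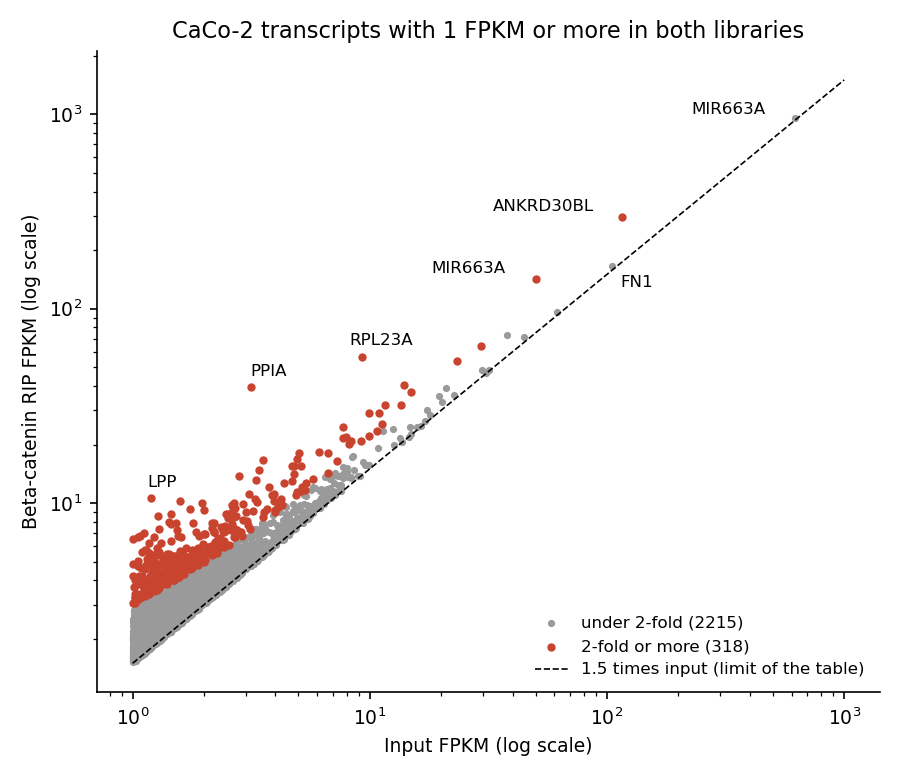
Input FPKM (x axis, log scale) and beta-catenin RIP FPKM (y axis, log scale) of the 2533 core transcripts of CaCo-2, 1 point each, with the 318 transcripts at 2-fold or more in red. The dashed line is the 1.5-fold limit of the table; PPIA and LPP stand furthest above it, and the MIR663A, ANKRD30BL and FN1 transcripts have the highest levels.

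Of the 20 core transcripts with the largest ratios 9 were coding and 11 were decay, retained-intron, processed or antisense forms. A nonsense-mediated-decay isoform of PPIA, the cyclophilin A gene, stood at 3.14 FPKM in the input and 39.6 in the RIP, a log2 ratio of 3.29. RPL23A, a protein of the large ribosomal subunit, followed at 9.25 and 56.4 FPKM, a log2 ratio of 2.48. The third was a coding transcript of LPP, an actin-associated adhesion protein, at 1.20 and 10.6 FPKM (log2 ratio 2.41). These 3 were the highest of all core transcripts. A retained-intron transcript of IPO7, a nuclear import receptor, stood at 1.59 and 10.2 FPKM (2.12). PSMD8, a subunit of the proteasome's regulatory particle, stood at 1.28 and 8.61 FPKM (2.08).

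No other core transcript reached a log2 ratio of 2. The next were a decay isoform of SLC35F5, a nucleotide-sugar transporter family member, at 1.45 and 8.74 FPKM (1.99), and a processed transcript of PTPRK, a receptor tyrosine phosphatase, at 2.81 and 13.8 FPKM (1.96). STT3A, the catalytic subunit of an oligosaccharyltransferase, gave 3.56 and 16.7 FPKM with a retained intron (1.96). SLC38A2, an amino acid transporter, gave 1.11 and 7.04 FPKM, also with a retained intron (1.93). EIF3M, a subunit of initiation factor 3, gave 1.001 and 6.57 FPKM (1.92). Among the rest of the 20 highest were SNF8 of the ESCRT-II complex (1.91), the mitochondrial elongation factor TUFM (1.90), the ezrin-family protein RDX (1.90), RPL37 (1.90), the ornithine decarboxylase antizyme OAZ1 (1.89), the ATP synthase gene ATP5F1, now ATP5PB (1.86), the prefoldin subunit PFDN6 (1.85), the calpain subunit CAPNS1 (1.84), the SWI/SNF subunit SMARCE1 (1.83) and the antisense RNA TAB3-AS2 (1.79). The strand setting of the libraries is not given in the sources used here, so reads of TAB3-AS2 and of TAB3 may not be separable.

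**Figure D2:**
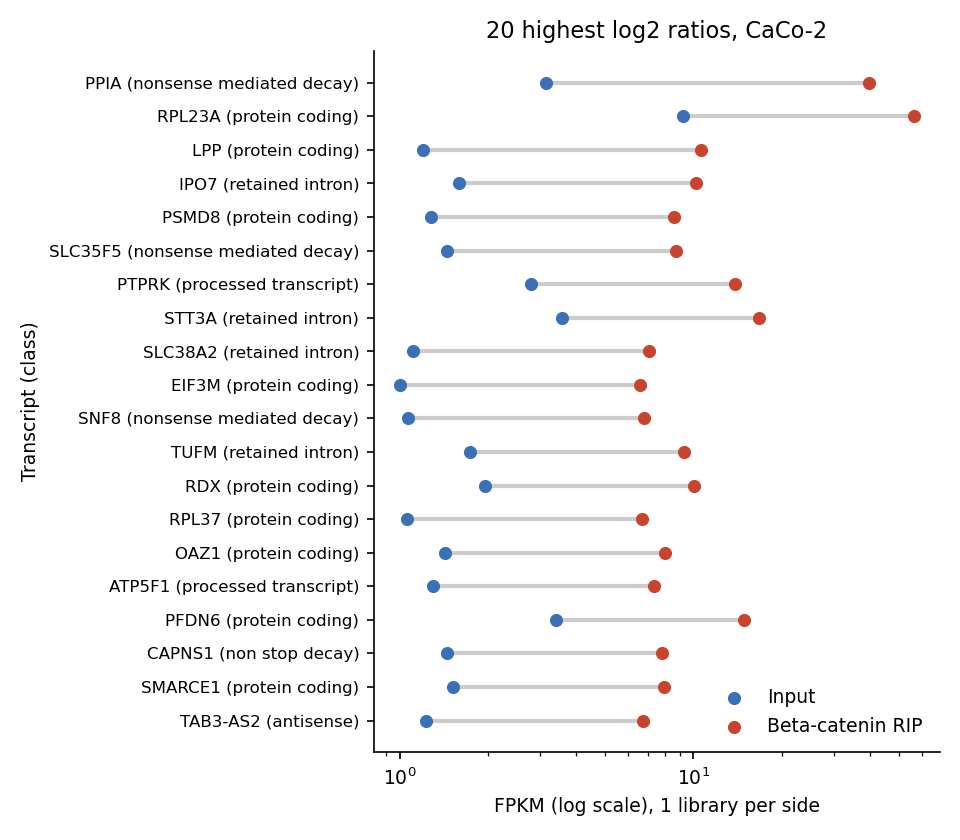
FPKM on a log scale (x axis) of the 20 core transcripts with the highest log2 ratios, with the input in blue, the beta-catenin RIP in red, and 1 library per side, so there are no error bars. Inputs lie between 1.001 FPKM (EIF3M) and 9.25 FPKM (RPL23A); the classes in brackets are those of the deposited table.

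None of these 20 had a q-value of at most 0.05, a limit set here. The authors' deposited table gives a Cuffdiff q-value of at most 0.05 to 40 core transcripts (1.58%). Among the 20 highest ratios, SMARCE1 came nearest (q = 0.0935 in the authors' deposited table). Of the 40, 37 were coding transcripts and 23 were at least 2-fold, which is 7.23% of the 318. Their log2 ratios ran from 0.55 to 1.48 with a median of 1.07, and their median genomic span was 52240 bases, against 7839 bases for the 2-fold transcripts and 9056 for all core transcripts. These q-values rest on 1 library per side and are quoted as the authors'.

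The leaders of that set by q were mostly coding transcripts of known function. CORO1B, a coronin that acts on branched actin, stood at 6.10 FPKM in the input and 18.3 in the RIP (log2 ratio 1.44, q = 0.000166 in the authors' deposited table). SUMO3, a small ubiquitin-like modifier, stood at 4.36 and 12.7 FPKM (1.36, q = 0.000637 in the authors' deposited table). PITPNM1, a phosphatidylinositol transfer protein, stood at 1.28 and 4.85 FPKM (1.36). The lysosomal protease CTSD was higher in both libraries, at 13.5 and 31.9 FPKM (1.18), and the H3K27 demethylase KDM6A was lower, at 1.11 and 3.67 FPKM (1.14). SRP14, part of the signal recognition particle, stood at 7.96 and 21.7 FPKM (1.34, q = 0.00595 in the authors' deposited table). The lipase-family gene ABHD2 was under 2-fold at 3.43 and 6.70 FPKM (0.80).

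By RIP level the leading core transcripts were lincRNAs, processed transcripts, coding messages and a pseudogene. A lincRNA filed under the name MIR663A on chromosome 20 (hg19, chr20:26168268-26190098, a genomic span of 21831 bases) stood at 622 FPKM in the input and 957 in the RIP, a log2 ratio of 0.62. ANKRD30BL, a processed transcript with a genomic span of 110379 bases (chr2:132905164-133015542), stood at 116 and 296 FPKM (1.35) and had the lowest q among core transcripts of the authors' deposited table, 1.83e-05. Spans can include introns, and the lengths of these transcripts were not available. The MIR663B hairpin, listed at 0 in the input and 56.4 FPKM in the RIP, lies inside ANKRD30BL on the same strand. FN1, the fibronectin gene, followed at 105 and 166 FPKM (0.65). Another lincRNA named MIR663A (chr20:26168445-26189897), which overlaps the longer one on the same strand, stood at 50.1 and 141 FPKM (1.48). Both are lincRNA models of the locus and not the hairpin, and Cuffdiff divides reads between such overlapping models. RP11-175B9.3, a processed pseudogene with a span of 322 bases, stood at 61.4 and 96.6 FPKM (0.65). A processed transcript of EEF1A1, a translation elongation factor gene, stood at 38.0 and 73.0 FPKM (0.92). The coding transcript of RPL31 stood at 44.5 and 71.3 FPKM (0.67) and that of the glutathione transferase GSTP1 at 29.4 and 64.3 FPKM (1.10). RPL23A, given above, and the glucose transporter SLC2A3, at 23.3 and 53.5 FPKM (1.17), completed the 10 highest.

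Genes of the translation machinery had the highest shares of 2-fold transcripts among the lists with at least 30 core transcripts. Their transcripts, also those at 2-fold, included decay, processed or retained-intron forms beside coding ones. Of 46 core transcripts of cytosolic ribosomal proteins, 15 were at least 2-fold (32.6%, interval 20.9 to 47.0%), with a median log2 ratio of 0.76, against 12.6% and 0.61 over all core transcripts. Of 34 core transcripts of translation factors, 9 were (26.5%, interval 14.6 to 43.1%), with a median of 0.75. None of the 46 and none of the 34 had a q of at most 0.05 in the authors' deposited table. Over all core transcripts the share was 11.6% at an input of 1 to under 2 FPKM and 29.7% at 10 FPKM or more, so the lists were also read within input classes. At an input of 1 to under 2 FPKM, 27.8% of 18 ribosomal transcripts were 2-fold against 11.4% of the other core transcripts. At 2 to under 5 FPKM the shares were 33.3% of 15 and 12.7%, and at 5 to under 10 FPKM 42.9% of 7 and 17.0%. At 10 FPKM or more they came close, at 33.3% of 6 and 29.03%. Translation factors were at 25% of 20 against 11.4% in the lowest input class and at 30% of 10 against 12.9% in the next. Above 5 FPKM the list had few transcripts: 1 of 2 was 2-fold at 5 to under 10 FPKM, and 0 of 2 at 10 FPKM or more, where 31.4% of the other core transcripts were.

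Ribosomal transcripts varied widely among themselves, from 0.38 to 2.48. After RPL23A came RPL37 at 1.06 and 6.67 FPKM (1.90), a processed transcript of RPL7A at 2.0 and 9.16 FPKM (1.76) and RPL27A at 4.71 and 15.4 FPKM (1.52). RPS4X, at 14.9 and 37.0 FPKM (1.26), was among the most abundant of the 2-fold members. Isoforms of a gene could differ: a decay isoform of RPS3 stood at 9.93 and 29.04 FPKM (1.46) and another at 31.9 and 48.6 FPKM (0.59), and the 4 core transcripts of RPL4 ran from 0.41 to 0.62. Ribosomal protein genes have many processed pseudogenes and near-identical copies, among which short reads can be split, so the level of each transcript is uncertain. Mitochondrial ribosomal proteins had 1 of 14 core transcripts at 2-fold (MRPL10, 9.91 and 22.1 FPKM, 1.08) and a median of 0.54. That share, 7.14%, had an interval of 1.27 to 31.5%, which held the 12.6% of all core transcripts. In HT-29 7 of 22 were 2-fold (31.8%), against 23.6% of all core transcripts there.

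Among translation factors, initiation factors led. After EIF3M came EIF3D, another subunit of initiation factor 3, at 1.27 and 5.89 FPKM (1.6), and EIF5, which triggers GTP hydrolysis by initiation factor 2, at 2.62 and 9.82 FPKM (1.58). A retained-intron transcript of EIF3B stood at 2.64 and 8.61 FPKM (1.4). The elongation factors EEF2 (1.68 and 5.87 FPKM, 1.36) and EEF1D (6.66 and 18.1 FPKM, 1.32) were also 2-fold. The members under 2-fold included EIF4G1, the scaffold of the cap-binding complex, with 3 core transcripts at 0.34 to 0.79, and PABPC1, the poly(A)-binding protein, at 0.60.

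Many messages of both lists begin with a 5′ terminal oligopyrimidine (TOP) tract, the element through which growth signalling controls their translation. A TOP-like start was counted as a C followed by at least 4 bases that are each C or T, beginning within 3 bases of a RefSeq start of the gene, on the gene's own strand. It was present in 16.0% of the 27305 genes of the RefSeq promoter table (GRCh38.p14), in 21.8% of the 1598 core genes matched by symbol, and in 25.5% of 235 matched core genes with a 2-fold transcript against 21.2% of the other 1363. Of 27 matched ribosomal protein genes 77.8% had one: 7 of 9 with a 2-fold transcript and 14 of 18 without. Of 17 matched translation factor genes 47.1% had one, 5 of 8 and 3 of 9. The ribosomal share was therefore as high without as with a 2-fold transcript. Genes of the promoter table had 1.29 RefSeq starts each on average and matched core genes 1.55, so the 16.0% and 21.8% are not like for like. The windows below hold 10 bases before the RefSeq start and 20 from it on. The list members shown first were taken from those with such a run. Windows of other 2-fold members, such as RPS4X, RPL27 and EIF3B, had none and are not shown. Last come the genes at ranks 1, 4 and 5 over all core transcripts. Of these, IPO7 at rank 4 has such a run and PPIA and PSMD8 have none. Capitals mark the pyrimidine run.
RPL7A: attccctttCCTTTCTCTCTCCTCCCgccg
RPL27A: gaaggccttCCTTTTTCgtctgggctgcca
RPS3: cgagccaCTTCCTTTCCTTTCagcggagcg
RPL35: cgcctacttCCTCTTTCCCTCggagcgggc
EIF3M: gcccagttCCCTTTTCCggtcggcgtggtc
EIF3D: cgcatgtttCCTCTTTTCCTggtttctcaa
PPIA: ggctcgtgccgttttgcagacgccaccgcc
IPO7: gcttctctttCCTTTCgcgccggttgccgc
PSMD8: tcaccatcttgagtgacgacagaggcggag
They lie at chr9:133348208-133348237 (RPL7A, plus strand), chr11:8682782-8682811 (RPL27A, plus), chr11:75399508-75399537 (RPS3, plus), chr9:124861938-124861967 (RPL35, minus), chr11:32583821-32583850 (EIF3M, plus), chr22:36529147-36529176 (EIF3D, minus), chr7:44796671-44796700 (PPIA, plus), chr11:9384642-9384671 (IPO7, plus) and chr19:38374561-38374590 (PSMD8, plus) of GRCh38.p14. Many core isoforms of these genes do not start at that base, so the match describes the gene and not the transcript measured.

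The endoplasmic reticulum and respiratory chain lists also had shares above 12.6%, on fewer transcripts, and the interval of the respiratory chain list held 12.6%. Of 27 core transcripts for ER translocation and folding, 7 were 2-fold (25.9%, interval 13.2 to 44.7%), with a median of 0.68. Besides STT3A and SRP14 these were the COPII coat genes SEC31A (1.20 and 4.97 FPKM, 1.44) and SEC23B (1.70 and 5.19 FPKM, 1.20), the translocon subunit SEC61G (1.34 and 4.78 FPKM, 1.30), the translocon-associated SSR1 (1.72 and 5.13 FPKM, 1.17) and the COPI coat gene COPB2 (2.02 and 5.08 FPKM, 1.01). SRP14 and SEC23B had a q of at most 0.05 in the authors' deposited table. Of 20 core transcripts for the respiratory chain and ATP synthase, 4 were 2-fold (20%, interval 8.07 to 41.6%). A coding transcript of ATP5A1, now ATP5F1A, the alpha subunit of ATP synthase, stood at 5.02 and 18.2 FPKM (1.67). The others were processed transcripts of ATP5F1 (1.30 and 7.32 FPKM), the cytochrome oxidase gene COX4I1 (2.73 and 8.59 FPKM, 1.36) and UQCR11 of complex III (3.02 and 8.11 FPKM, 1.18).

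Further lists, many of them of genes that act in the nucleus, had intervals that all held the 12.6% of all core transcripts. Most rested on few transcripts. Chromatin regulators had 7 of 39 core transcripts at 2-fold (17.9%, interval 8.98 to 32.7%), led by SMARCE1 (1.52 and 7.94 FPKM, 1.83). Retained-intron transcripts of the deacetylase HDAC2 (1.403 and 5.47 FPKM, 1.43) and the remodeller CHD2 (1.01 and 4.20 FPKM, 1.37) followed. Splicing factors had 10 of 65 (15.4%, interval 8.58 to 26.1%), led by a decay isoform of HNRNPUL1 (1.31 and 6.21 FPKM, 1.64). The RNA helicase DDX39B (2.65 and 9.31 FPKM, 1.497) and a retained-intron transcript of HNRNPL (3.74 and 12.1 FPKM, 1.46) came next. RNA helicases and export factors had 5 of 31 (16.1%, interval 7.09 to 32.6%). All but the export receptor XPO1 (1.32 and 4.38 FPKM, 1.21) were transcripts of DDX39B, EIF4A1 and EIF4A2, which other lists hold too. Zinc finger genes of the ZNF family, repressors for the most part, had 1 of 23 (4.35%, interval 0.772 to 21.0%), a retained-intron transcript of ZNF511 at 1.02. Transporters of the SLC families had 6 of 57 (10.5%), proteasome and ubiquitin conjugation genes 3 of 23 (13%) and cell cycle genes 3 of 25 (12.0%), among them CCNB1, the mitotic cyclin, at 2.997 and 8.97 FPKM (1.32). Histone genes had 2 of 7 (28.6%, interval 8.22 to 64.1%), both from H3F3B, the H3.3 gene, at 1.51 and 1.01.

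Genes of beta-catenin's own pathway gave counts too small to set apart from the 12.6% of all core transcripts. Of 65 listed transcripts of Wnt pathway components 14 were in the core set, and 1 of these was 2-fold (7.14%, interval 1.27 to 31.5%); their median of 0.49 was below the 0.61 of all core transcripts. Outside the core set 3 listed component transcripts had a q of at most 0.05 in the authors' deposited table, as did 268 of all 11943 listed transcripts. In HT-29 4 of 10 core component transcripts were 2-fold, against 23.6% of all core transcripts there. The 2-fold member in CaCo-2 was a retained-intron transcript of CSNK1D, casein kinase 1 delta, at 1.19 and 5.37 FPKM (1.54). The others lay lower, and some were decay, processed or retained-intron forms. They included the co-repressor TLE3 at 0.80, the remodeller CHD8 at 0.68 and the ubiquitin ligase BTRC at 0.57. DVL2 was at 0.48, TCF7L1 at 0.44 and TCF7L2, the main TCF of the colon, at 0.34. CTNNB1, which encodes beta-catenin, had 1 core transcript at 2.32 and 3.56 FPKM (0.46), and a second coding transcript at 0.311 and 2.17 FPKM (1.27) that missed the input limit. Of 4 core transcripts of Wnt target genes, out of 17 listed, 1 was 2-fold (25%, interval 4.56 to 69.9%), a processed transcript of RNF43, the ubiquitin ligase that removes Wnt receptors, at 2.48 and 8.77 FPKM (1.49). The feedback inhibitor AXIN2 stood at 1.70 and 3.13 FPKM (0.62), a retained-intron transcript of CCND1 at 4.30 and 6.48 FPKM (0.50) and EPHB2 at 1.28 and 2.0 FPKM (0.39). In HT-29 0 of 9 core transcripts of Wnt target genes were 2-fold, against the same 23.6%. Cadherin and junction genes had 2 of 15, retained-intron transcripts of CGN, the tight junction protein cingulin (5.19 and 12.0 FPKM, 1.07), and PKP4, a plakophilin (1.99 and 5.09 FPKM, 1.03), while CDH1, E-cadherin, stood at 2.78 and 4.33 FPKM (0.49).

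**Figure D3:**
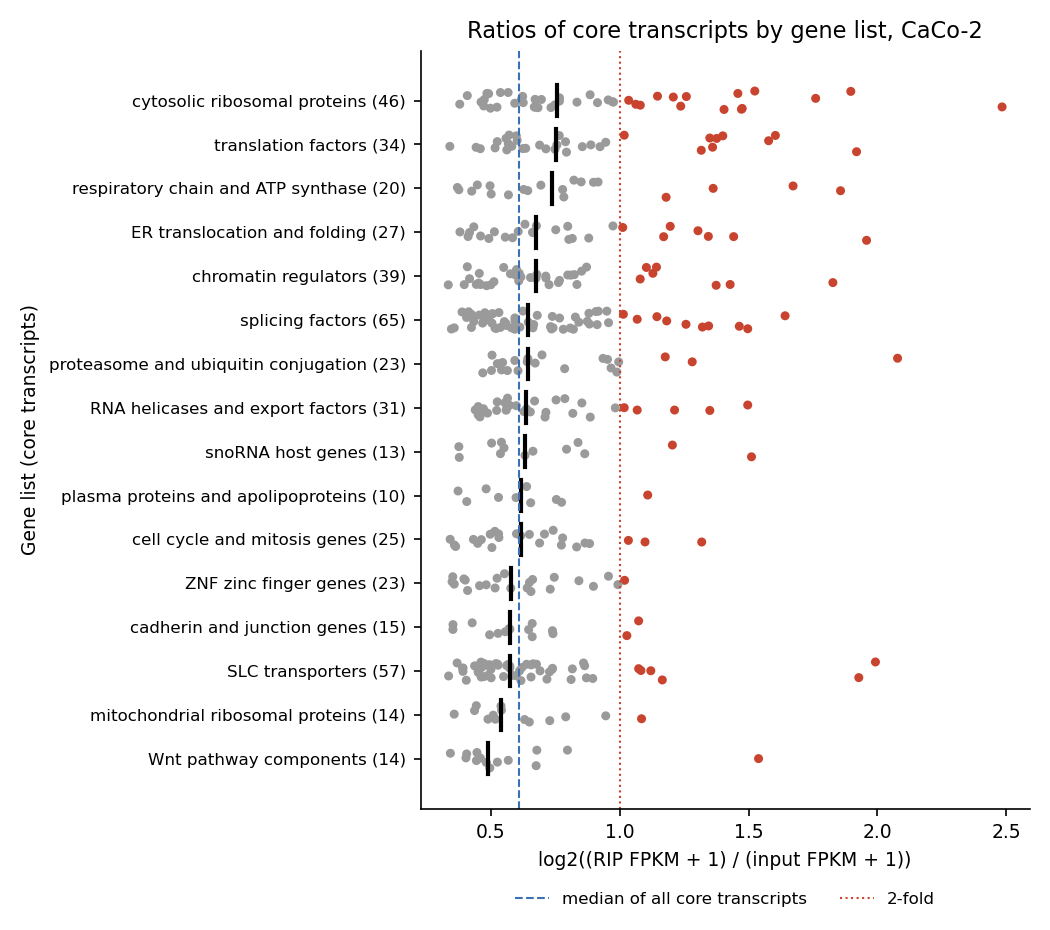
Log2 ratios (x axis) of core CaCo-2 transcripts in the gene lists with at least 10 of them (y axis, number of transcripts in brackets), 1 point per transcript, with those at 2-fold or more in red. The black bar is the list median; the medians run from 0.49 for Wnt pathway components to 0.76 for cytosolic ribosomal proteins, and the dashed line is the 0.61 of all core transcripts.

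Genes that mark the line were in the table. Of 16 markers of colonic epithelium and enterocytes 6 were listed (CDH1, FABP1, KRT8, KRT18, KRT19 and LGALS4), at RIP levels of 0.870 to 32.0 FPKM, and of 8 secretory genes known from CaCo-2 cells 4 were (APOA1, APOB, SERPINA1 and TTR). None of 4 blood, 4 fibroblast or 3 neuronal markers was listed, though a marker below the 1.5-fold limit would not appear. KRT18, a simple-epithelium keratin, stood at 11.6 and 32.0 FPKM (1.39), and 3 core transcripts of its partner KRT8 ran from 0.51 to 1.19. Plasma protein and apolipoprotein genes, which CaCo-2 cells are known to express, had 1 of 10 core transcripts at 2-fold (10%, near the 12.6% of all core transcripts), APOC1 (1.79 and 5.02 FPKM, 1.11). Their median input was 1.90 FPKM against 1.59; the fetuin gene AHSG stood at 17.5 and 30.1 FPKM (0.75) and the fibrinogen chain FGG at 17.2 and 26.5 FPKM (0.60).

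Retained-intron transcripts had the lowest share at 2-fold among the classes with at least 100 core transcripts. Of the 2533 core transcripts 1265 (49.9%) were not of the protein-coding class, and neither were 138 of the 318 at 2-fold. The share at 2-fold was 14.2% of 1268 protein-coding transcripts (interval 12.4 to 16.2%), 16.1% of 137 decay isoforms (10.9 to 23.1%) and 11.8% of 356 processed transcripts (8.85 to 15.6%). It was 8.23% of 547 retained-intron transcripts, with an interval of 6.205 to 10.8% that lay below that of coding transcripts. Retained-intron transcripts also had a lower median input, 1.42 against 1.70 FPKM. Within genes that had both kinds in the core set, the transcript of each kind with the highest RIP level was compared, without matching on input. For retained introns the order was the same: the retained-intron transcript had the higher ratio in 28 of 85 genes, with a median difference of -0.11. Processed transcripts were higher than the coding ones in 28 of 48 genes, with a median difference of 0.09, and decay isoforms in 4 of 13, with -0.17. For processed transcripts and decay isoforms the order within genes was thus opposite to that of the shares above. In HT-29 the shares of core transcripts at 2-fold were 22.4% for retained introns and 22.7% for coding transcripts; the difference between the lines was not tested.

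Long non-coding classes, the subject of the study, had shares near the 12.6% of all core transcripts. Of 48 lincRNAs 7 were 2-fold (14.6%, interval 7.25 to 27.2%), and of 77 antisense transcripts 10 were (12.99%, interval 7.21 to 22.3%). The highest lincRNA was AC004702.2 on chromosome 17, at 7.74 and 24.5 FPKM (1.54), ahead of the MIR663A transcript at 1.48. LINC00493, classed as a lincRNA by the deposited table but now named SMIM26, followed at 2.02 and 6.94 FPKM (1.39). After TAB3-AS2 the highest antisense RNA was RP11-299J3.8, at 2.19 and 7.10 FPKM (1.34). Among snoRNA host genes DANCR, a long RNA with roles in differentiation, stood at 1.84 and 7.11 FPKM (1.51) and SNHG1 at 1.11 and 3.87 FPKM (1.20), 2 of 13 core transcripts. Of the nuclear-retained lncRNAs, OIP5-AS1 (0.53) and FTX (0.51) were in the core set, both under 2-fold. For the RBM5 locus, the core set held retained-intron transcripts of RBM5 (1.25 and 2.32 FPKM, 0.56) and its neighbour RBM6 (1.07 and 2.29 FPKM, 0.67).

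**Figure D4:**
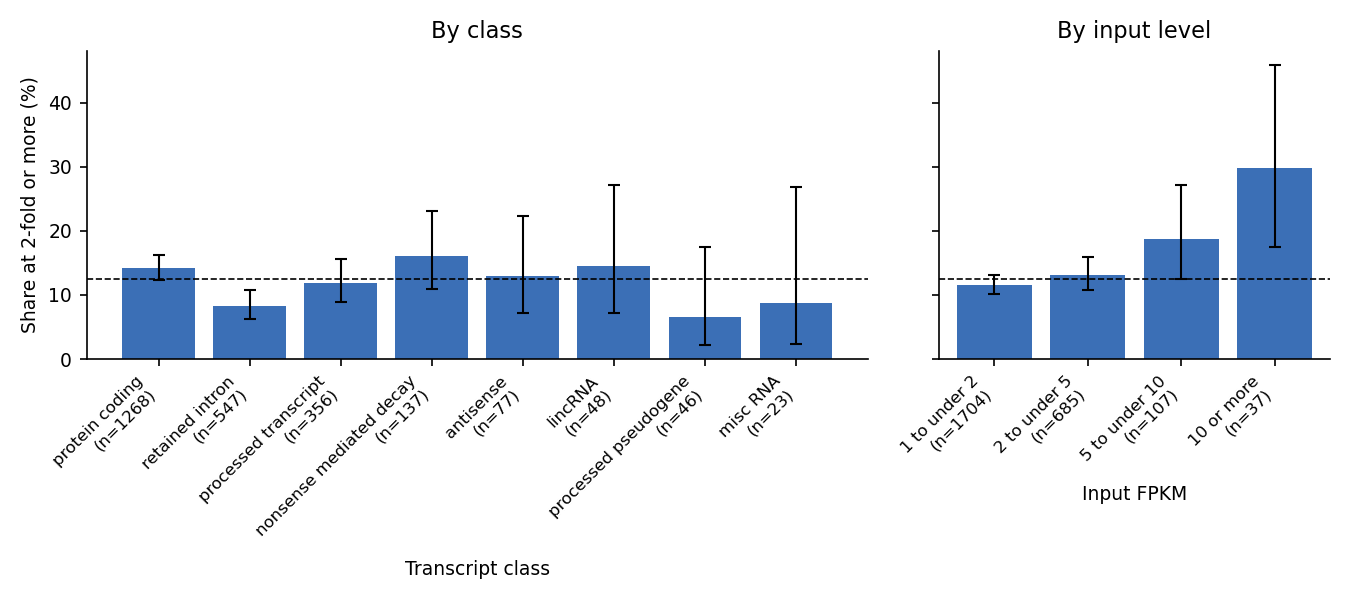
Share of core CaCo-2 transcripts at 2-fold or more (y axis, percent) by transcript class (left) and input FPKM (right), with 95% Wilson intervals as error bars and the number of transcripts in brackets. The dashed line is the 12.6% of all core transcripts; retained introns (8.23%) lie below it, and the share is 11.6% in the lowest and 29.7% in the highest input class.

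The ratios of a gene's isoforms could be compared in 309 genes. Of these 309 genes with at least 2 core transcripts, 9 had all of them at 2-fold, 91 had some and 209 had none, and the median distance between the highest and lowest ratio of a gene was 0.27. The genes with all at 2-fold included QKI, an RNA-binding regulator of splicing (1.42 and 1.21), USP22, a deubiquitinase of the SAGA complex (1.57 and 1.55), MEST, an imprinted hydrolase-family gene (1.70 and 1.48), and NFKBIZ, a nuclear inhibitor of NF-kappa-B (1.20 and 1.16). By contrast, the 4 retained-intron transcripts of SLC38A2 ran from 0.50 to 1.93.

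Transcripts listed at 0 in the input are described by their RIP level and carry no fold. With a span of at least 200 bases they numbered 3298. The highest was a transcript with a genomic span of 1274 bases from MALAT1, a nuclear long non-coding RNA, at 128 FPKM. It was followed by SCARNA2, a Cajal body RNA that guides modification of spliceosomal RNA, at 53.3 FPKM (q = 3.14e-08 in the authors' deposited table). SNORD3A, the U3 RNA of ribosome biogenesis, was at 31.7 FPKM. The coding transcript with the highest level was from HAVCR1, a membrane receptor also known as KIM-1, at 14.6 FPKM (q = 3.32e-05 in the authors' deposited table), ahead of the laminin receptor gene RPSA at 12.1 FPKM. The MALAT1, SNORD3A and RPSA transcripts did not have a q of at most 0.05 in the authors' deposited table. Of the 268 listed transcripts with a q of at most 0.05 in the authors' deposited table, 197 had an input of 0. A block of 76 input-0 transcripts shared a p-value of 0.231 in the authors' deposited table while their RIP levels ran from 0.845 to 27730 FPKM, 33 of them with a span under 200 bases.

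Short RNAs had the highest FPKM values of the table. FPKM divides by length, so few fragments on a short RNA give a large value, and a library made with an RNA kit of this type is not designed to hold mature miRNAs. Of 206 transcripts with a span under 200 bases, 168 were at 0 in the input. The 47 of the miRNA class, which are hairpin precursors of 61 to 180 bases, had RIP levels of 7.09 to 55459 FPKM; 42 were at 0 in the input, and none had a q of at most 0.05 in the authors' deposited table. The RefSeq table named 12 of the hairpins at 0 by symbol. Among them the let-7 hairpins were highest: MIRLET7I (85 bases) at 1699 FPKM and MIRLET7F1 (87 bases) at 1332 FPKM, both from the family of differentiation-linked miRNAs. They were also the shortest of the 12, and the level mostly fell as the span rose. AC025674.1, another hairpin of 87 bases at 0 in the input, had the same 1332 FPKM. This order therefore cannot be told apart from an effect of length. MIR200A, of the family that guards the epithelial state, was at 924 FPKM, MIR27B at 392 FPKM, and MIR15B and MIR576, both of 98 bases, at the same 348 FPKM. Mature forms from RefSeq are shown for the let-7 pair, 2 other named hairpins and the hairpin inside ANKRD30BL, with the seed (bases 2 to 8) in capitals.
let-7i-5p: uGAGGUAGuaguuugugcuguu
let-7f-5p: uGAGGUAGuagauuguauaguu
miR-200a-3p: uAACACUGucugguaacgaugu
miR-27b-3p: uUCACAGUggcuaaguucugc
miR-663b: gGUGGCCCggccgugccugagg
The let-7 forms share the seed GAGGUAG and the other 3 have seeds of their own; the libraries measured hairpin loci and not these mature forms.

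Mitochondrial tRNAs were a short group in which most members had an input level, and 10 were listed. MT-TS1, a serine tRNA, stood at 192514 FPKM in the input and 1191450 in the RIP (log2 ratio 2.63), and MT-TN, the asparagine tRNA, at 209944 and 542745 FPKM (1.37). MT-TA, the alanine tRNA, had the highest level of the 10, 1436450 and 2401800 FPKM, and a smaller ratio (0.74). Of the 10, 6 were at least 2-fold, against 34.6% of all listed transcripts and, among other short classes, 40 of 47 snoRNAs and 33 of 34 snRNAs, most of which were at 0 in the input. MT-TG was at 0 in the input and at 21198 FPKM in the RIP. MT-TW, also of 68 bases, had that same RIP level, from 8289 FPKM in the input (1.35). MT-TM, of 68 bases too, stood at 16577 and 63594 FPKM (1.94). Fragment counts were not available, and the 2-fold calls of MT-TG, MT-TW and MT-TM may rest on few fragments.

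HT-29 had the larger ratio for most of the core transcripts that both tables list. Of the 3342 HT-29 transcripts that met the core limits there, 790 were 2-fold (23.6%), against 12.6% in CaCo-2. The HT-29 table listed 653 of the 2533 CaCo-2 core transcripts (25.8%). In CaCo-2 itself 119 of these 653 were 2-fold (18.2%, interval 15.5 to 21.4%), against 199 of the 1880 not listed in HT-29 (10.6%, interval 9.27 to 12.1%). In HT-29 332 of the 653 were 2-fold, and 85 were so in both lines, which is 71.4% of the 119 and 25.6% of the 332. The HT-29 input was 0 for 31 of the 85, and it was under 1 FPKM for 302 of the 653, whereas every one had at least 1 FPKM in CaCo-2. For the 351 that met the core limits in both lines the counts were closer, at 68 in CaCo-2 and 112 in HT-29, with 36 in both. The median ratio of the 653 was 0.66 in CaCo-2 and 1.01 in HT-29, and HT-29 had the higher value for 484. Over the 351, Pearson's r of the ratios was 0.33 and Spearman's rho 0.33 across transcripts, which are not independent replicates and whose ratios were cut at 1.5-fold on both sides.

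Ranked by whichever line gave the smaller ratio, the leading 10 transcripts included RPL23A, EIF3M, RPL37 and RPL7A of the translation machinery and both ATP synthase transcripts named above. RPL23A led with nearly the same ratio in both, 2.48 in CaCo-2 and 2.47 in HT-29, where it stood at 17.2 and 99.8 FPKM. EIF3M stood at 2.12 and 21.6 FPKM in HT-29 (2.86), and RPL7A at 3.05 and 14.1 FPKM (1.90). The retained-intron transcripts of IPO7, TPM3 (a tropomyosin) and MIF (a cytokine), and the coding transcript of ATP5A1, were at 0 in the HT-29 input, so no HT-29 fold is given; their RIP levels there were 10.4, 5.96, 5.77 and 11.7 FPKM. PSMD8 had a lower ratio in HT-29, 0.72 at 7.0 and 12.2 FPKM, and PPIA and LPP were not in the HT-29 table with these transcripts. Of the 19 core ribosomal transcripts of CaCo-2 listed in HT-29, 8 were 2-fold in CaCo-2 and 12 in HT-29. Over the HT-29 core set 51 of 123 ribosomal transcripts were 2-fold (41.5%) and 23 of 47 translation factor transcripts (48.9%), against the 23.6% of that line. Differences between the lines were not tested, and the lists were chosen with these results known.

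**Figure D5:**
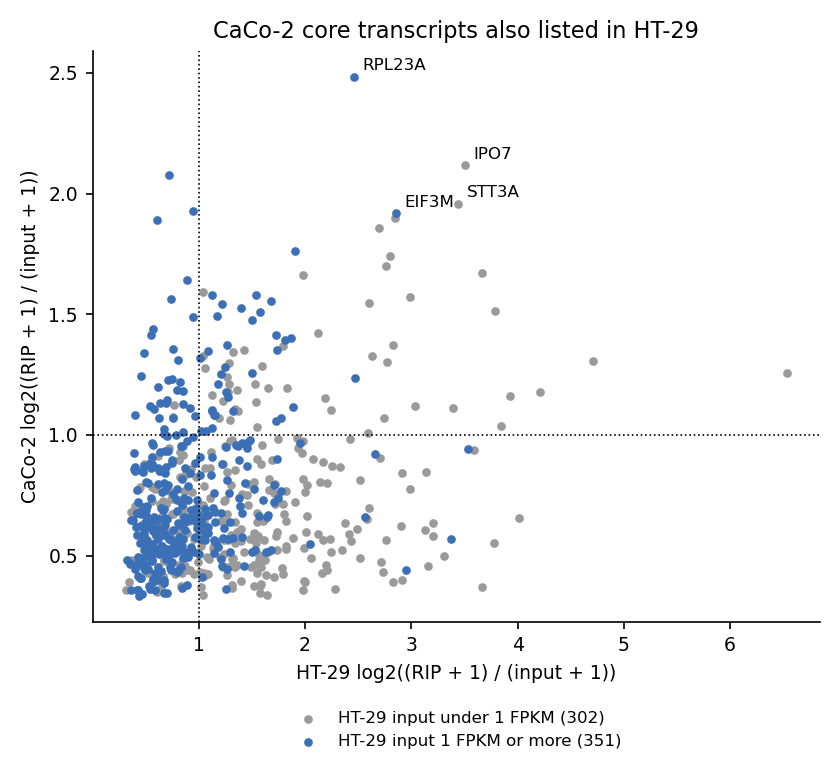
Log2 ratio in HT-29 (x axis) and in CaCo-2 (y axis) of the 653 core CaCo-2 transcripts also listed in HT-29, 1 point each, in blue where the HT-29 input was at least 1 FPKM (351) and in grey where it was lower (302). Dotted lines mark 2-fold; 85 transcripts lie above both, with RPL23A the highest in CaCo-2.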

How the data were processed

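For each line the authors deposited 1 Cuffdiff table with a row per Ensembl transcript, giving FPKM for the RIP and the input, a log2 fold, and p-values and q-values. Tools, per the submitters' processing notes, were CASAVA 1.4, TopHat2 2.0.8 with Bowtie2, and Cufflinks with Cuffdiff, on the hg19 build; further versions and the strand setting: not given in the sources used here. FPKM depends on the length model, and Cuffdiff divides reads among overlapping isoforms; depth is unknown.

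From the deposited FPKM, log2 ratios were computed with a pseudocount of 1, which understates low transcripts, in Python 3.11.15 with pandas 2.3.3, and checked on simulated data. Named were the 20 highest core ratios; 10 each by RIP level, deposited q, level at input 0 and lower ratio of both lines; 3 per class with at least 20; 6 per list; and the study's genes; some of these are not reported here. QKI, USP22, MEST, NFKBIZ and list members beyond the 6 were chosen after their values were seen. Members and the 20 gene lists were chosen with earlier results of these data known. Symbols follow the tables; 1958 of 2147 core names are current in RefSeq. Alternatives covered pseudocount, FPKM limit, span and 1 transcript per gene.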

Additional observations from a re-analysis of the deposited data

How the results depend on the processing

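No ratio could change sign, since every listed transcript was at least 1.5-fold above input, but orders among classes and lists did change. The 318 core transcripts at 2-fold became 503 with a pseudocount of 0.5 and 795 with 0.1, 640 of 5721 with a limit of 0.5 FPKM, 63 of 379 with a limit of 3, 892 by the plain fold, 40 by the authors' deposited q, and 31 of 144 at an input of at least 5 FPKM (chosen after seeing the data). The corresponding shares of all core transcripts were 19.9% and 31.4% by pseudocount, and 11.2% and 16.6% by FPKM limit. The median ratio of 0.61 became 0.71 and 0.83 by pseudocount, and 0.55 and 0.67 by limit. With a pseudocount of 0.5, shares were 22.4% (coding), 15.7% (retained intron) and 19.1% (processed transcript). With 0.1 they were 32.5%, 27.8% and 33.1%, 31.4% for decay isoforms, 47.8% for ribosomal proteins, 47.1% for translation factors, 35.4% for splicing factors, 38.7% for helicases and 43.6% for chromatin regulators, so decay isoforms, the highest of these classes as reported, became lower than coding and processed transcripts. At 3 FPKM they were 12.7% of 55 retained introns, 33.3% of 18 decay isoforms, and 0 of 2 helicase and 0 of 3 chromatin transcripts. The 4129 of all listed transcripts became 6312 and 8095 by pseudocount, and 1450 with an input above 0. The 85 shared with HT-29 became 129 and 188, and 36 with a limit of 1 FPKM in all 4 libraries. Pseudocount and limit decide these counts by construction. Dropping the span limit, raising it to 1000 bases or taking 1 transcript per gene moved none of the 12 leading results by over 1.5 times or beyond its interval. No paired analysis was possible because each group has 1 library and the labels carry no replicate numbers; for the same reason no library could be left out.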

Other observations

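Of the 197 transcripts at 0 FPKM in the input and with a q of at most 0.05 in the authors' deposited table, a few more are given as examples, with no theme implied. USH1C, the brush border scaffold harmonin, had a decay isoform at 5.10 FPKM in the RIP (q = 0.00047 in the authors' deposited table). AP1M2, an adaptor subunit for basolateral sorting in epithelia, stood at 4.70 FPKM, and RAB25, an epithelial trafficking GTPase, at 6.10 FPKM. DNMT3B, a DNA methyltransferase, stood at 4.57 FPKM and TCOF1, the treacle protein of the nucleolus, at 5.38 FPKM (q = 1.51e-09 in the authors' deposited table). The kinase SRPK1, which acts on splicing factors, stood at 4.30 FPKM, the trafficking gene TFG at 4.54 FPKM, the retromer subunit VPS29 at 3.72 FPKM and TWF1, an actin-binding twinfilin, at 4.77 FPKM. All were named after their values were seen, and other isoforms of these genes were not considered.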
